A study of Homo sapiens with 15 samples.

Results

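U251 cells, an established human glioblastoma line, were compared 6 h after a dose of 6 Gy with cells that were not irradiated. The comparison uses 6 of the 15 RNA-seq libraries of the study, namely those whose labels give 6 Gy and 6 h (replicates I, II and III) and those labelled control and 0 h (replicates I, II and III). All genes of the count table enter it. The study asked how an ineffective and an effective dose of ionizing radiation (IR), 1 Gy and 6 Gy, change transcription with time, and its other groups were collected 6 h and 24 h after 1 Gy and 24 h after 6 Gy, with 3 libraries each. Every group is the same line, labelled WT, grown on plates in the same medium, so the comparison describes 1 cell line. The control is labelled 0 h, but the treatment record states that untreated cells were collected 24 h after the irradiation of the others. The control cells were therefore harvested 18 h later than the cells collected 6 h after IR, and a difference between these groups that comes from IR cannot be told apart from one that comes from the time in culture. The 1 Gy cells at 6 h are matched in harvest time, and their values stand beside the control for the main genes. The study calls the libraries of a condition biological replicates, and the labels do not say whether they came from separate cultures, so p-values measure the spread between these libraries.

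A double-strand break activates the kinases ATM and ATR, which signal through CHK1 and CHK2 to hold the CDC25 phosphatases inactive, so that cyclin B with CDK1 is not switched on and the cell stops before mitosis. Many genes whose products are needed for mitosis are transcribed late in the cell cycle, and their promoters are known for CCAAT boxes bound by NF-Y and for cell cycle genes homology region (CHR) elements bound by the MuvB complexes. Genes for DNA replication are transcribed earlier, at the G1/S boundary, through E2F factors. In bulk RNA, fewer cells in a phase of the cycle and less of a transcript in each cell cannot be told apart.

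The 6 libraries held between 9183696 and 11170801 counts, and all 15 between 8691338 and 11719631. Within the control and the 6 Gy group, pairs of libraries had correlations across genes of 0.995 to 0.997 on the log2 scale, and the lowest of all pairs within groups was 0.989, between 1 Gy replicates I and II (6 h). VIM, NES, CD44 and SOX2, which glioblastoma lines express, were at 1559, 318, 1834 and 255 CPM (counts-per-million, with library sizes corrected by edgeR's TMM factors) in the control mean. GFAP, the intermediate filament gene of astrocytes, was low at 3.67 CPM in the control and 3.14 CPM after 6 Gy. Markers of other cells were low or at 0. The summed CPM of the 4 epithelial markers was 2.50 to 3.58 in the control and 2.28 to 3.74 after 6 Gy, with EPCAM at 0 in all 6 libraries. Of the blood markers, CD3E and HBB were at 0 in all 6, and CD14 had a mean of 1.15 CPM in the control and 0.670 CPM after 6 Gy. The 5 neuron markers summed to 28.7 to 32.7 CPM in the control and 28.7 to 29.9 CPM after 6 Gy, mostly from SYT1 (22.4 and 20.3 CPM) and SNAP25 (6.25 and 7.23 CPM), while STMN2 was at 0. Most of the sum over 7 markers of glioblastoma lines and glia came from CD44 and VIM. It ranged from 4022 to 4077 CPM in the control and from 3699 to 3969 CPM after 6 Gy. S100B, also among the 7, was low at 1.63 CPM in the control and 1.51 CPM after 6 Gy. OLIG2, AQP4, ALDH1L1 and CHI3L1, further markers of this kind, had too few counts to be tested. The part of the glial markers in the results was not tested.

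At 6 h after 6 Gy, 43 of the 117 tested genes on 5 lists for mitosis were lower, against 0.778% of all tested genes. Of the 117, 0 were higher by edgeR's quasi-likelihood test, its likelihood ratio test or DESeq2. At an unadjusted p under 0.05 of the quasi-likelihood test, 10 were higher and 72 lower. Over all genes, the same test on the control and 6 Gy at 6 h libraries alone had 908 higher and 1039 lower at that p. The called genes that rose were fewer than those that fell. Of these 29, 24 stood outside every gene list, as do most of all tested genes. The genes that rose included CDT1, CCNE2 and EXO1 of DNA replication and repair. The call of CDT1 was lost without replicate I of the 6 Gy group and that of CCNE2 without control replicate III. Of 22447 genes in the table, 12597 had enough counts to be tested, and a gene is called lower or higher at an adjusted p under 0.05 (the quasi-likelihood test of edgeR, adjusted by Benjamini and Hochberg over all tested genes) with an absolute log2 fold change above 0.5. By this rule 98 genes fell and 29 rose, which is 0.778% and 0.23% of those tested. Lower genes thus made up 77.2% of the 127 called. With the adjusted p alone, 204 genes were lower (1.62%) and 108 higher (0.857%). In 98 of the 98 lower genes and 29 of the 29 higher ones, the 3 libraries after 6 Gy did not overlap with the 3 control libraries. Over all tested genes the 6 Gy libraries lay below in 10.4% and above in 9.95%. The calls were made on these same libraries, so the separation describes the called genes and is no further support for them. The median log2 fold change was -0.72 for the lower genes and 0.62 for the higher genes, beside 0.00 over all genes tested. A fall below -1 on the log2 scale was seen in 20 genes and a rise above 1 in 3. More counts stood behind the lower genes. Of the 98, 90 had at least 10 CPM in the control, against 11 of the 29 higher genes, and the number of higher genes depended on single libraries. It was 13 without replicate I and 11 without replicate II of the 6 Gy group, and 16, 17 and 19 without control replicate I, II or III, while between 83 and 92 genes were lower.

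**Figure D1:**
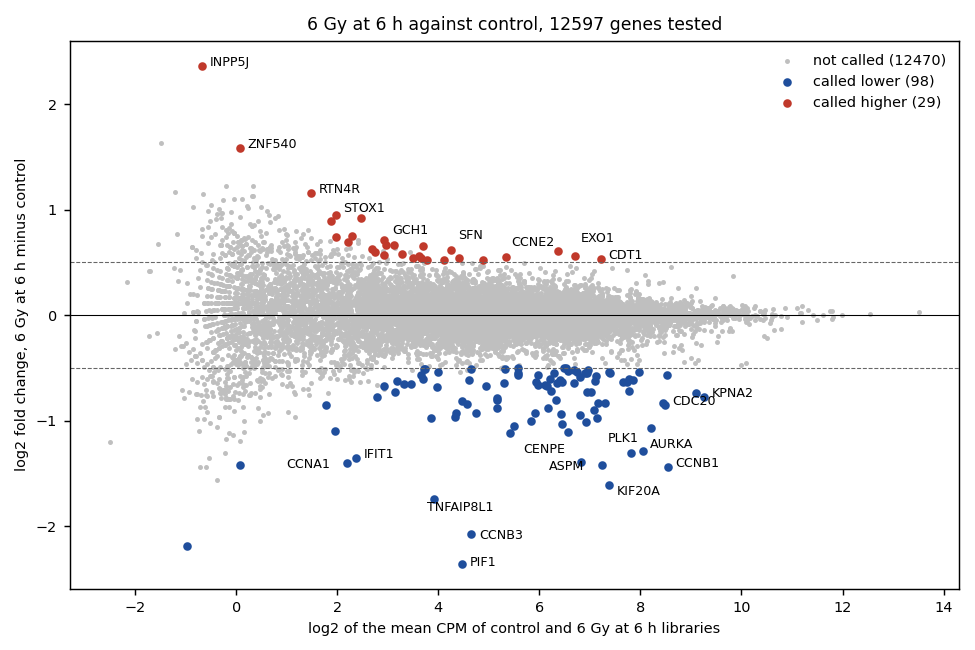
Each point is 1 of 12597 tested genes, with the log2 of its mean CPM over the control and 6 Gy at 6 h libraries on the x axis and its log2 fold change (6 Gy at 6 h minus control) on the y axis. Dashed lines mark 0.5 and -0.5, and the 98 lower genes (blue) reach further to the right, to higher counts, than most of the 29 higher genes (red).

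Most genes for entry into mitosis fell. Of 21 tested genes for mitotic kinases, cyclins and their regulators, 14 fell and 0 rose, against 0.778% and 0.23% of all tested genes. Their median log2 fold change was -0.61. CCNB1 encodes cyclin B1, the partner of CDK1 at mitotic entry (chr5:68462837-68474070 in hg19). It was at 514, 532 and 581 CPM in the control libraries, at 425, 465 and 483 CPM after 1 Gy and at 181, 200.2 and 218 CPM after 6 Gy. The 6 Gy libraries lay below every control and every 1 Gy library. Against the control, CCNB1 was 2.71-fold lower (log2 fold change -1.44, standard error (SE) 0.0757, adjusted p = 4.43e-11), and against 1 Gy at the same time the log2 fold change was -1.19 (SE 0.0756, adjusted p = 1.50e-09). PLK1, the Polo-like kinase that helps to activate CDK1 and later builds the spindle (chr16:23690143-23701688), was at 302, 305 and 348 CPM in the control, 285, 294 and 294 CPM after 1 Gy and 133, 128 and 125 CPM after 6 Gy. It fell by a log2 fold change of -1.31 (SE 0.0667, adjusted p = 2.95e-11). AURKA, which encodes the kinase that activates PLK1 at the centrosome (chr20:54944445-54967351), was at 359, 379 and 388 CPM in the control and 147, 155 and 159 CPM after 6 Gy. The groups of PLK1 and AURKA did not overlap, and the 1 Gy libraries of AURKA, at 345, 357 and 371 CPM, were all above the 6 Gy libraries. TPX2, which binds and activates Aurora A on the spindle, fell from 689 ± 11.1 CPM (SD, n = 3) to 413 ± 9.37 CPM. BORA, the cofactor with which Aurora A activates PLK1, fell by 0.80 on the log2 scale, but it overlaps MZT1 and DIS3 on the other strand, and the sources used here do not say whether counting separated the strands.

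Not every gene of mitotic entry was lower. CDK1 itself was at 273, 277 and 266 CPM in the control and 237, 280.1 and 251.3 CPM after 6 Gy, with overlapping libraries and a log2 fold change of -0.09 (adjusted p = 0.747). FOXM1, a transcription factor of mitotic genes, had -0.08 (adjusted p = 0.770). The inhibitory kinases of CDK1 differed in sign, since WEE1 had a log2 fold change of -0.49 (adjusted p = 1.70e-04) and PKMYT1 one of 0.46 (adjusted p = 0.00410), both under the fold threshold. Of the phosphatases that activate CDK1, CDC25C fell from 28.1 ± 2.76 to 16.0 ± 1.37 CPM (SD, n = 3, log2 fold change -0.81, adjusted p = 7.64e-05) and CDC25B fell by 0.57 on the log2 scale. CDC25A, which acts mainly at the G1/S boundary, had 0.26 (adjusted p = 0.0533). CDC25C overlaps FAM53C on the other strand. B-MYB, the product of MYBL2 and a partner of FOXM1, had a log2 fold change of 0.30 (adjusted p = 0.0120), under the fold threshold.

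Among the cyclin genes, picked by symbol after their values were seen, 7 of 23 tested fell and 1 rose. The shares over all tested genes were 0.778% and 0.23%. CCNB3, which encodes a B-type cyclin best known from meiosis (chrX:50027540-50094911), was at 38.9, 43.0 and 39.9 CPM in the control, 34.0, 26.3 and 29.9 CPM after 1 Gy and 9.65, 9.01 and 10.3 CPM after 6 Gy. The 6 Gy libraries were all below the others, and the fall was 4.20-fold (log2 fold change -2.07, SE 0.105, adjusted p = 2.95e-11). Its 3 libraries after 1 Gy also lay below the 3 control libraries, and 6 Gy against 1 Gy gave -1.64 (SE 0.108, adjusted p = 2.63e-09). CCNB2, the second mitotic B cyclin, fell from 203 ± 10.8 to 114 ± 4.12 CPM (SD, n = 3, log2 fold change -0.83, adjusted p = 3.38e-08). CCNA2, the cyclin of S phase and G2, fell less, by 0.55 on the log2 scale, and overlaps EXOSC9 on the other strand. CCNF fell by 0.61. CCNA1, a cyclin A known from the germ line, fell from 6.66 ± 1.07 to 2.50 ± 0.369 CPM (log2 fold change -1.40, adjusted p = 5.92e-05). CCNG2, an unconventional cyclin linked to cell cycle arrest, had 5.62, 5.38 and 4.87 CPM in the control and 1.87, 2.42 and 3.12 CPM after 6 Gy (log2 fold change -1.09, adjusted p = 0.00910), but without replicate I of the 6 Gy group its value was -0.92 and it was not called. The D cyclin genes CCND1 and CCND3, which act in G1, had log2 fold changes of -0.11 and 0.16 (adjusted p = 0.567 and 0.270). CCNE2 was the cyclin gene that rose.

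**Figure D2:**
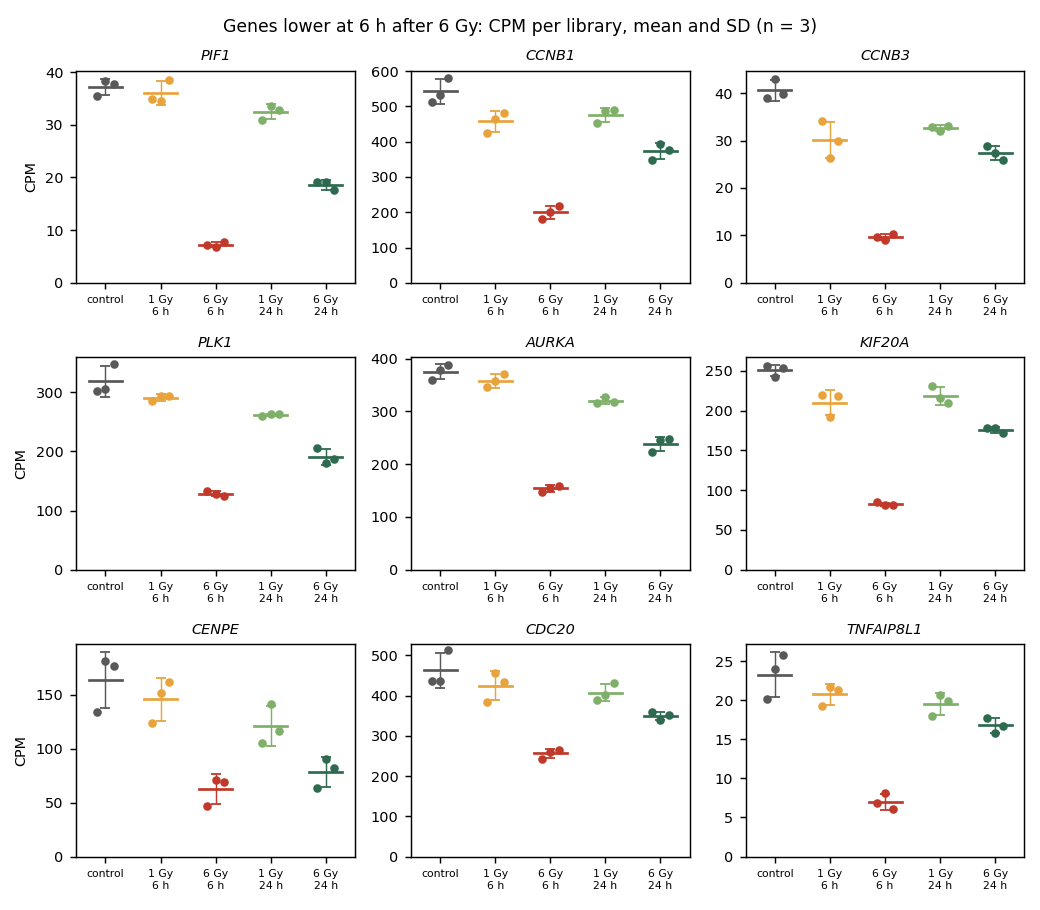
CPM (y axis, from 0) of 9 genes in each of the 15 libraries by group (x axis), with points for libraries and bars for the mean and SD of 3. The 6 Gy at 6 h libraries (red) are the lowest group of each gene, as for AURKA at 154 ± 6.05 CPM beside 375 ± 14.7 CPM in the control.

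Genes of motors and spindle proteins fell too. Of 33 tested genes for mitotic kinesins, spindle and cytokinesis, 17 fell and 0 rose, against 0.778% and 0.23% of all tested genes. Their median log2 fold change was -0.53, and 29 were lower by the adjusted p alone, against 1.62% of all. KIF20A encodes the kinesin that carries the passenger complex to the midzone (chr5:137514417-137523404). It was at 256, 242 and 254 CPM in the control, 219, 192 and 218 CPM after 1 Gy and 84.4, 81.2 and 81.3 CPM after 6 Gy. The 6 Gy libraries were close to each other and all below the other groups, with a 3.04-fold fall (log2 fold change -1.61, SE 0.0663, adjusted p = 1.88e-12). KIF20A overlaps CDC23 on the other strand. ASPM, whose product holds the spindle poles (chr1:197053257-197115824), was at 226, 238 and 192 CPM in the control and 85.1, 76.6 and 83.9 CPM after 6 Gy (log2 fold change -1.42, SE 0.122, adjusted p = 1.50e-07). CENPE, a kinesin of the kinetochore, was at 134, 181 and 176 CPM in the control and 47.0, 71.3 and 69.5 CPM after 6 Gy. Replicate I was the lowest of both groups in CENPE and the groups did not overlap (log2 fold change -1.39, SE 0.156, adjusted p = 6.96e-06). KIF14, a kinesin of cytokinesis, fell by 1.11 on the log2 scale, KIF18A, which dampens chromosome movements, by 1.00, and KIF2C, a microtubule-depolymerizing kinesin, by 0.64. KIF23, the motor of centralspindlin, fell by 0.63 and its partner RACGAP1 by 0.54. DLGAP5, HMMR and FAM83D of the spindle fell by 1.03, 1.01 and 0.98 on the log2 scale (adjusted p = 3.16e-08, 2.07e-08 and 8.69e-10). PRC1, which bundles the midzone microtubules, had -0.46 (adjusted p = 8.16e-05) and KIF11, the motor that separates the poles, -0.36 (adjusted p = 0.0148), so both missed the fold threshold.

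Of 17 tested genes for the chromosomal passenger complex and the spindle checkpoint, 6 fell and 0 rose (median log2 fold change -0.23). Over all tested genes 0.778% fell and 0.23% rose. In the passenger complex, CDCA8 and INCENP were called and AURKB and BIRC5 were not, though all had log2 fold changes below zero. CDCA8 (borealin) was at 181, 178 and 186 CPM in the control and 99.6, 105 and 102 CPM after 6 Gy (log2 fold change -0.83, adjusted p = 6.98e-09). INCENP, its scaffold, fell by 0.64 on the log2 scale. AURKB, its kinase, had -0.24 (adjusted p = 0.104) and BIRC5 (survivin) -0.23 (adjusted p = 0.239), and neither was called. Of the spindle checkpoint, the kinase genes TTK and BUB1 and the pseudokinase gene BUB1B fell by 0.72, 0.62 and 0.54 on the log2 scale, although BUB1B shares a stretch with PAK6 on the same strand. MAD2L1 and BUB3 had -0.06 and -0.20 (adjusted p = 0.868 and 0.103).

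At the centromere and kinetochore, 4 of 27 tested genes fell and 0 rose, against 0.778% and 0.23% of all tested genes, and the median was 0.01. CENPA, the histone H3 variant that marks the centromere, was at 51.7, 59.8 and 71.3 CPM in the control, 56.2, 62.4 and 65.0 CPM after 1 Gy and 29.0, 30.1 and 29.1 CPM after 6 Gy. The 6 Gy libraries lay below all others (log2 fold change -1.05, SE 0.0982, adjusted p = 4.27e-07). CENPF and NDC80 fell by 0.83 and 0.64 on the log2 scale. NUF2, the partner of NDC80, stood at the threshold with -0.50 (adjusted p = 4.15e-04), and it had -0.45 without replicate I of the 6 Gy group and -0.46 without control replicate III, and was not called in either. The constitutive proteins CENPH, CENPU and CENPQ had log2 fold changes of 0.21, 0.25 and 0.27 (adjusted p = 0.274, 0.110 and 0.244). Of 19 tested genes for the anaphase-promoting complex and its substrates, CDC20 and PTTG1 fell, and 0 rose. CDC20, the activator of the complex in mitosis, was at 437, 437 and 514 CPM in the control and 244, 260.1 and 265 CPM after 6 Gy (log2 fold change -0.85, SE 0.0743, adjusted p = 1.63e-07). PTTG1 (securin) fell from 133 ± 9.01 to 88.8 ± 6.67 CPM (SD, n = 3, log2 fold change -0.59), with the limit that PTTG2 is a near copy of it. UBE2C, the E2 enzyme of the complex, had -0.38 against the control (adjusted p = 0.0271) and -0.62 against 1 Gy (adjusted p = 3.81e-04).

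**Figure D3:**
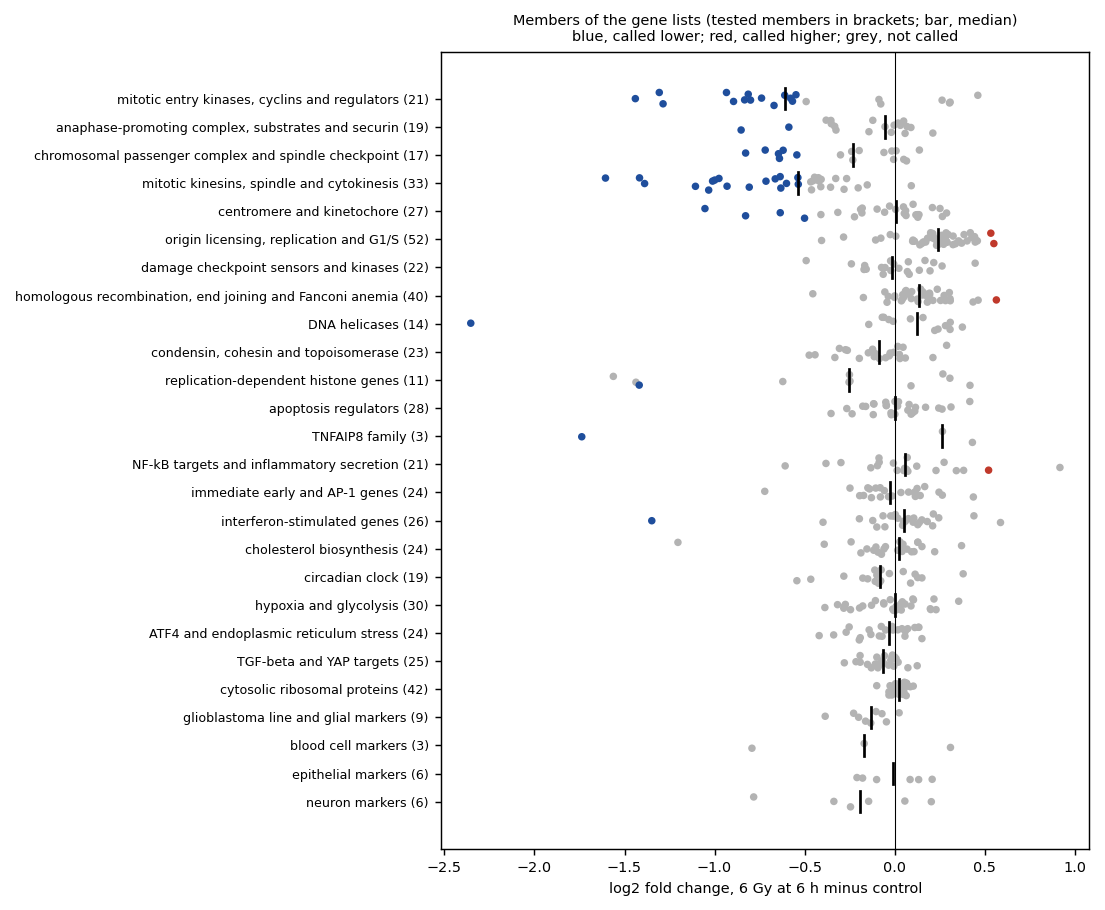
Each point is a tested gene placed by its log2 fold change (6 Gy at 6 h minus control, x axis) in the list named on the y axis, with a bar at the median of the list. Blue points, the lower genes, gather in the lists of mitosis, and the list of origin licensing, replication and G1/S has a median of 0.24.

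The largest fall among called genes was that of PIF1, a DNA helicase that unwinds G-quadruplexes and acts at telomeres (chr15:65107829-65117867). It was at 35.4, 38.2 and 37.8 CPM in the control, 34.8, 34.5 and 38.6 CPM after 1 Gy and 7.26, 6.70 and 7.79 CPM after 6 Gy. The 1 Gy libraries overlapped with the control, and the 6 Gy libraries were 5.11-fold lower than the control in the fit. Against 1 Gy the log2 fold change was -2.31 (SE 0.1003, adjusted p = 6.65e-12). Of 14 tested DNA helicase genes PIF1 alone was called, where 1.01% of all tested genes were called. The helicase genes BLM, DNA2 and BRIP1 had 0.28, 0.31 and 0.31 (adjusted p = 0.126, 0.0595 and 0.195). The median of the list was 0.12, and 6 of the 14, PIF1 among them, were below zero. TNFAIP8L1, of the TNFAIP8 family of lipid-transfer proteins (chr19:4639527-4655580), was at 20.1, 23.9 and 25.7 CPM in the control, 19.2, 21.7 and 21.3 CPM after 1 Gy and 6.85, 8.13 and 6.03 CPM after 6 Gy. Each 6 Gy library was below the lowest of the other groups. Its relatives TNFAIP8 and TNFAIP8L3 had 0.27 and 0.43 (adjusted p = 0.352 and 0.686). IFIT1, an interferon-stimulated gene, was at 6.04, 8.55 and 7.72 CPM in the control and 2.18, 2.75 and 3.84 CPM after 6 Gy (log2 fold change -1.35, SE 0.222, adjusted p = 8.34e-04). It was the only 1 of 26 tested interferon-stimulated genes to be called, beside the 1.01% over all tested genes. IFIT2 had 0.59 (adjusted p = 0.207).

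Of the 98 lower genes, 51 stood outside every gene list by the symbols of the count table, as do most of all tested genes. GAS2L3, which links actin and microtubules in cytokinesis, was at 65.0, 58.0 and 52.8 CPM in the control and 27.8, 25.7 and 27.5 CPM after 6 Gy (log2 fold change -1.12, adjusted p = 9.57e-06). The others of this paragraph were named after their values were seen. KNSTRN, which encodes a kinetochore adaptor and is on the spindle list under an older symbol that did not match, fell by 0.88 on the log2 scale, KPNA2, an importin alpha gene, by 0.78, DEPDC1 by 0.95, PRR11 by 0.73 and ARL6IP1, of the endoplasmic reticulum membrane, by 1.07. G2E3, named for its expression in G2, fell by 0.93 and CEP70, of the centrosome, by 0.96. E2F5, which encodes a repressor E2F of the DREAM complex, fell from 19.2 ± 0.209 to 9.79 ± 1.14 CPM (SD, n = 3) and overlaps C8orf59 on the other strand. ARHGAP11A and ARHGAP11B, near copies of each other, fell by 0.73 and 0.56. The fall of PAN3-AS1 (-2.18), second in size to that of PIF1, rested on a mean under 1 CPM in both groups, and this transcript lies on the other strand of PAN3.

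Promoters of genes the results turn on are shown with the elements named above, which are known from genes transcribed in G2 and M. The sequences run 5′ to 3′ along the strand of the gene and hold the 120 bases before the start of transcription as RefSeq annotates it on GRCh38.p14. Capitals mark CCAAT (or ATTGG, the same box on the other strand), the CHR hexamer TTTGAA and, in CDT1, the E2F-like element TTTCCCGC, which lies on the other strand. They are shown for the gene of the largest fall, for 5 genes of mitotic entry, spindle and exit that fell, and for CDT1, which rose. These genes were picked by hand, so the sequences do not show how common the elements are among the called genes. Shares over all windows are given below.
PIF1 (chr15:64825648-64825767, minus strand): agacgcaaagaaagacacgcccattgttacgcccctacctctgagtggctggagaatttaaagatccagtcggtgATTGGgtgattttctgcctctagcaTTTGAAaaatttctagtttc
KIF20A (chr5:138178992-138179111, plus strand): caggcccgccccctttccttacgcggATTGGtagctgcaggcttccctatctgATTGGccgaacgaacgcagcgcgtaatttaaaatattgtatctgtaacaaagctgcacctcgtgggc
CCNB1 (chr5:69167030-69167149, plus strand): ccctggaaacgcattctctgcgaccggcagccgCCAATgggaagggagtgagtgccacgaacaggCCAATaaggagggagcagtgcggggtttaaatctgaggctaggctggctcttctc
PLK1 (chr16:23678769-23678888, plus strand): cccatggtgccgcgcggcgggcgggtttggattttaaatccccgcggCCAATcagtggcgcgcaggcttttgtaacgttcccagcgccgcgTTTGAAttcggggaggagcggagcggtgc
CDC20 (chr1:43358861-43358980, plus strand): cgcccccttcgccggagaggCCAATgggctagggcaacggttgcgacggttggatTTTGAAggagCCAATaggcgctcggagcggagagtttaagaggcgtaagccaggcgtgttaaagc
CCNB2 (chr15:59105026-59105145, plus strand): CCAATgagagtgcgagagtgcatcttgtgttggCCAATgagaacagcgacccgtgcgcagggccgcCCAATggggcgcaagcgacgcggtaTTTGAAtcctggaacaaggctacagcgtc
CDT1 (chr16:88803669-88803788, plus strand): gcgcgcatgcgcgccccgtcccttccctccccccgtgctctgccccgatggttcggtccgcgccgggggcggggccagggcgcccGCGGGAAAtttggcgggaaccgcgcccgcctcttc
In PLK1 and CCNB2 TTTGAA begins 29 bases before the start, with a CCAAT box upstream, and in PIF1 it begins 20 bases before it, with a box on the other strand at 45. CDC20 has TTTGAA at 65 with boxes on both sides of it. KIF20A and CCNB1 have a pair of boxes each and no TTTGAA in the window searched, which says only that these letters are not there.

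The same letters were counted on both strands in RefSeq windows of 250 bases before to 50 bases after each start, in which overlaps between the motifs were allowed. Of the 98 lower genes 82 matched by symbol, with 117 windows, since a gene can have several starts, and of all tested genes 9614 matched, with 14226 windows. TTTGAA was in 41% of the windows of lower genes, against 10.5% of all windows. CCAAT was in 54.7% against 34.6%, and at least 2 boxes were in 31.6% against 11.9%. Both motifs were in 29.1% of the windows of lower genes and 4.15% of all. Of the 29 higher genes 16 matched, with 30 windows, of which 2 (6.67%), both of 1 gene, held TTTGAA. An E2F-like element (TTTCCCGC, TTTCGCGC, TTTGCCGC or TTTGGCGC) was in 13.3% of the windows of higher genes, 2.56% of those of lower genes and 4.76% of all windows. The first 2 shares rest on only 4 and 3 windows. These shares describe the letters only, and no binding was measured.

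CDT1 and CCNE2 rose among genes of the G1/S boundary. Of 52 tested genes for origin licensing, replication and G1/S, these 2 rose and 0 fell, against 0.23% and 0.778% of all tested genes, with a median log2 fold change of 0.24, and 5 of the 52 were below zero. By the adjusted p alone 17 were higher and 1 was lower, against 0.857% and 1.62% of all. CDT1, whose product loads the replicative helicase with CDC6 (chr16:88870186-88875666), was at 117, 118 and 129 CPM in the control, 136, 156 and 134 CPM after 1 Gy and 185, 175 and 169 CPM after 6 Gy. The 6 Gy libraries were above all others (log2 fold change 0.53, SE 0.0839, adjusted p = 4.67e-04). Without replicate I of the 6 Gy group the value was 0.498, just under the fold threshold. CCNE2 encodes a cyclin E, which drives entry into S phase. It was at 32.7, 35.7 and 30.4 CPM in the control, 38.9, 32.0 and 35.1 CPM after 1 Gy and 50.3, 43.6 and 50.9 CPM after 6 Gy, and the 6 Gy libraries were the highest (log2 fold change 0.55, SE 0.0963, adjusted p = 0.00157). Without control replicate III its log2 fold change was 0.49, again under the threshold, and CCNE2 overlaps INTS8 on the other strand. CDC6 had 0.45 (adjusted p = 5.92e-05), PCNA, the sliding clamp, 0.46 (adjusted p = 6.42e-04), and RRM2, a subunit of ribonucleotide reductase, 0.37 (adjusted p = 6.93e-05), all under the fold threshold. The regulator E2F1 had 0.42 (adjusted p = 0.00151). FAM111B, a gene of unsettled function that stood outside the lists and was named after its values were seen, rose from 65.5 ± 4.03 to 100.1 ± 2.61 CPM (SD, n = 3, log2 fold change 0.61, adjusted p = 7.71e-05).

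Of the genes for repair and for arrest after damage, EXO1 and SFN rose. EXO1, the exonuclease that resects broken ends and acts in mismatch repair (chr1:242011493-242053241), was at 85.6, 88.0 and 79.7 CPM in the control, 103, 96.2 and 99.4 CPM after 1 Gy and 128, 123 and 124 CPM after 6 Gy. The groups were separate, with the 1 Gy libraries between the others (log2 fold change 0.57, SE 0.0666, adjusted p = 1.21e-05). Of the 40 tested genes for homologous recombination, end joining and the Fanconi anemia pathway, EXO1 was the called one. Over all tested genes 1.01% were called, and the median of the list was 0.14. SFN (14-3-3 sigma) encodes a protein that holds cyclin B with CDK1 in the cytoplasm. It was at 15.7, 14.2 and 15.1 CPM in the control, 17.5, 22.4 and 16.8 CPM after 1 Gy and 22.2, 25.6 and 21.3 CPM after 6 Gy. It rose against the control (log2 fold change 0.62, SE 0.116, adjusted p = 0.00331), and the highest 1 Gy library lay within the 6 Gy group. CDKN1A, the p21 gene, was at 83.2, 82.5 and 77.6 CPM in the control and 105, 93.5 and 100.0 CPM after 6 Gy, without overlap, and its log2 fold change of 0.29 (adjusted p = 0.0160) was under the fold threshold. MDM2, a ubiquitin ligase gene, was at 90.5, 87.2 and 88.8 CPM in the control and 77.0, 87.0 and 86.5 CPM after 6 Gy, nearly touching (log2 fold change -0.09, adjusted p = 0.731). GADD45A had -0.03 (adjusted p = 0.951) with overlapping libraries. Of 22 tested genes for damage sensors and checkpoint kinases, 0 were called by edgeR's quasi-likelihood test, its likelihood ratio test or DESeq2. At an unadjusted p under 0.05 of the first, 2 were lower and 3 higher. Over all genes, 1039 were lower and 908 higher at that p in the fit on these 2 groups alone. Since 1.01% of all tested genes were called, a count of 0 in a list of this size is near that share.

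**Figure D4:**
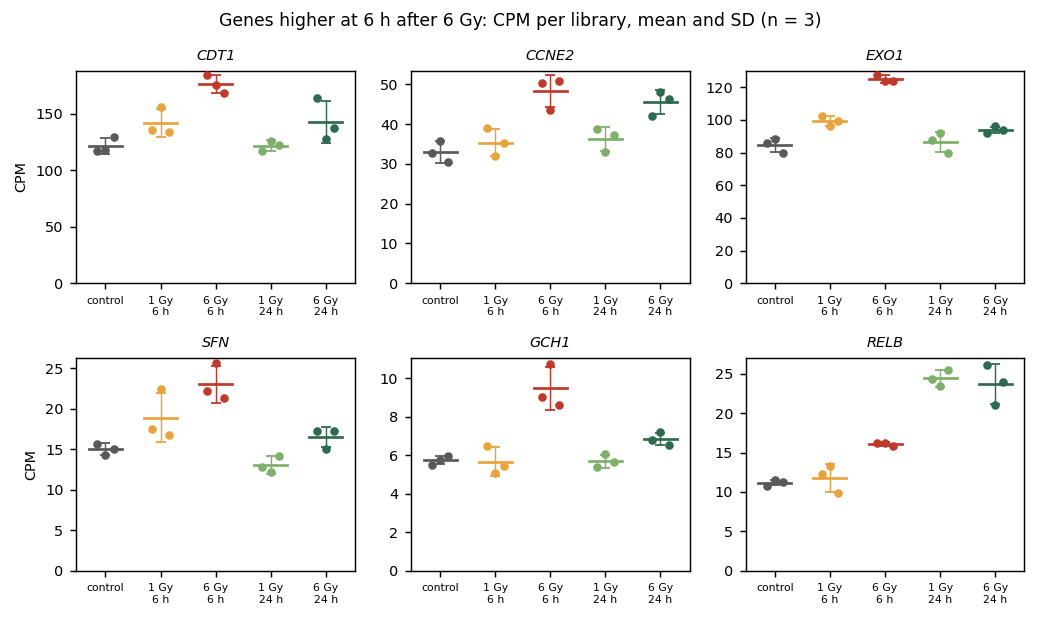
CPM (y axis, from 0) of 6 genes that rose at 6 h after 6 Gy, in each of the 15 libraries by group (x axis), with the mean and SD of 3 as bars. EXO1 stands at 125 ± 2.43 CPM in the 6 Gy at 6 h libraries (red) beside 84.4 ± 4.29 CPM in the control.

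The other named higher genes had control means of 11.2 CPM or less. GCH1, the first enzyme of tetrahydrobiopterin synthesis, was at 5.51, 5.77 and 5.97 CPM in the control, 6.50, 5.08 and 5.41 CPM after 1 Gy and 9.03, 10.8 and 8.62 CPM after 6 Gy. The 6 Gy libraries were above both other groups (log2 fold change against the control 0.71, SE 0.136, adjusted p = 0.00383). CCDC64 rose from 6.74 ± 0.133 to 10.7 ± 0.560 CPM (SD, n = 3, log2 fold change 0.67, adjusted p = 0.00187). FAM171A2 rose from 3.82 ± 0.670 to 7.27 ± 1.35 CPM (log2 fold change 0.92, adjusted p = 0.00546). These 3 kept their calls whichever library was left out. RELB, an NF-kB subunit gene and the called one among 21 tested NF-kB and inflammatory genes, was at 10.8, 11.5 and 11.2 CPM in the control and 16.2, 16.3 and 15.8 CPM after 6 Gy (log2 fold change 0.52, adjusted p = 0.0156). Its groups did not overlap, but the call was lost when replicate I or II of the 6 Gy group or any control library was left out, with values from 0.50 to 0.54. Over all tested genes 1.01% were called. The receptor gene INSR (0.67), C19orf57 (0.70), KREMEN2 (0.74), the metalloproteinase gene MMP15 (0.75), TMEM121 (0.89), STOX1 (0.95), RTN4R, the Nogo receptor gene (1.15), ZNF540 (1.58) and INPP5J (2.36) had the largest other log2 fold changes among higher genes, and each of the 9 lost its call in at least 3 of the 6 fits that left out 1 library, with values from 0.57 (INSR without control replicate I) to 2.71 (INPP5J without control replicate III). INPP5J, a phosphoinositide phosphatase gene, was at 0.106, 0.192 and 0.276 CPM in the control and 0.830, 1.10 and 1.25 CPM after 6 Gy, and ZNF540, which overlaps ZNF571 on the other strand, at 0.530, 0.480 and 0.551 and 1.14, 1.76 and 1.87 CPM.

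Several other programs held no called gene, where 1.01% of all tested genes were called, so that counts of 0 in lists of this size are near the share over all genes. Of 28 tested apoptosis regulators, 24 immediate early and AP-1 genes, 24 genes of cholesterol synthesis, 30 of hypoxia and glycolysis, 24 ATF4 and endoplasmic reticulum stress genes, 25 targets of TGF-β and YAP and 42 cytosolic ribosomal protein genes, 0 were called by edgeR's quasi-likelihood test, its likelihood ratio test or DESeq2, and at an unadjusted p under 0.05 of the first 25 were lower and 6 higher among these 197 genes. Over all genes, 1039 were lower and 908 higher at that p in the fit on the control and 6 Gy at 6 h libraries alone. The medians of the 7 lists lay between -0.06 and 0.03. CFLAR, an inhibitor of caspase 8, had -0.35 (adjusted p = 0.0351), under the fold threshold. Of 19 clock genes, which can differ with the hour of harvest, 0 were called by the 3 tools (3 were lower and 0 higher at an unadjusted p under 0.05), and ARNTL, the clock activator BMAL, had -0.47 (adjusted p = 0.0208) against the control and -0.32 (adjusted p = 0.358) against 1 Gy at the same time. Histone genes without poly(A) tails are poorly captured by the library preparation, and 11 of 24 were tested. HIST1H2AG fell from 1.53 ± 0.347 to 0.568 ± 0.182 CPM (SD, n = 3, log2 fold change -1.42, adjusted p = 0.0283), but its call was lost without replicate I or III of the 6 Gy group and without control replicate I or III (values from -1.39 to -1.24). Of the genes the study singled out for chromatin contacts, BTG2, PPIB and PRSS35 had log2 fold changes of -0.12, -0.04 and -0.02 (adjusted p = 0.880, 0.921 and 0.981) and overlapping libraries. TRIM29 was at 1.27, 1.06 and 1.29 CPM in the control and 2.80, 2.42 and 1.77 CPM after 6 Gy, which was not called (log2 fold change 0.94, adjusted p = 0.207). HCRTR2 had at most 2 counts in a control library and 0 in each 6 Gy library and was not tested.

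The doses were compared directly at 6 h, which is matched in harvest time but shares the 6 Gy libraries with the comparison above. After 6 Gy 69 genes were lower than after 1 Gy (0.548% of those tested) and 3 were higher (0.0238%). For the 98 genes lower than the control, the median log2 fold change against 1 Gy was -0.59, and for the 29 higher genes it was 0.33. Of the genes for mitotic entry 13 of 21 were lower than after 1 Gy, and of the kinesins and spindle genes 13 of 33. PLK1 had -1.18 (SE 0.0667, adjusted p = 2.75e-10), AURKA -1.22 and KIF20A -1.35 against 1 Gy. Of the G1/S genes 0 of 52 were called between the doses by the 3 tools. At an unadjusted p under 0.05 of the quasi-likelihood test, 1 was lower and 22 higher. Over all genes, 378 were lower and 258 higher at that p in the fit on these 2 groups alone. CDT1 had 0.31 (SE 0.0836, adjusted p = 0.104) and EXO1 0.33 (SE 0.0663, adjusted p = 0.0102, under the fold threshold). The 3 genes higher after 6 Gy than after 1 Gy were GCH1 (0.73, adjusted p = 0.00551), the endothelin receptor gene EDNRB (0.57, adjusted p = 0.0188) and EEPD1 (1.80, adjusted p = 0.0337), which encodes a nuclease relative. They are named because they are so few. The count of 3 was 12 without replicate I of the 1 Gy group, 7 by the likelihood ratio test and 0 in the quasi-likelihood fit on these groups alone (258 at an unadjusted p under 0.05), in which the 3 calls were lost. EDNRB was at 10.0, 9.01 and 9.39 CPM after 1 Gy and 14.3, 14.9 and 12.99 CPM after 6 Gy, and EEPD1 at 0.383, 0.346 and 0.773 and 1.66, 2.53 and 1.14 CPM, without overlap in either gene. TOP2A, which encodes the topoisomerase that separates sister chromatids, was at 1225, 1176 and 1287 CPM after 1 Gy and 768, 884 and 893 CPM after 6 Gy and was lower than after 1 Gy (-0.53, adjusted p = 1.09e-04), whereas against the control its -0.47 (adjusted p = 3.35e-04) missed the fold threshold. The difference between these contrasts was not tested.

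At 24 h after 6 Gy, 4 of the 21 genes for mitotic entry and 7 of the 33 kinesin and spindle genes were higher than at 6 h, and 0 were lower. This comparison shares the 6 Gy libraries at 6 h. Its 24 h cells were harvested 18 h later than the 6 h cells, so an effect of IR cannot be told apart from time in culture. Of the other mitosis lists, the passenger complex and spindle checkpoint had 2 lower and 0 higher genes of 17 (median log2 difference -0.15), the centromere and kinetochore 2 lower and 1 higher of 27 (median -0.22), and the anaphase-promoting complex and its substrates 0 lower and 1 higher of 19 (median -0.12). Over all tested genes 920 were higher at 24 h than at 6 h (7.3%) and 399 lower (3.17%). The median log2 difference of 24 h minus 6 h was 0.46 for the 98 lower genes and -0.33 for the 29 higher genes, beside 0.00 over all. CCNB1 stood at 373 ± 22.2 CPM at 24 h (SD, n = 3), between its 6 h and control levels, and PIF1 at 18.6 ± 0.926 CPM. KIF23 and BUB1 had differences of -0.04 and 0.02 (adjusted p = 0.671 and 0.868) and stood at 161 ± 7.49 and 110.5 ± 3.59 CPM at 24 h. A few lower genes, picked after their values were seen, were higher at 24 h than at 6 h and had means above that of the control, a difference not tested here. NEAT1, the long noncoding RNA of paraspeckles (chr11:65190269-65213009), was at 311, 296 and 229 CPM in the control, 190.3, 177 and 179 CPM at 6 h after 6 Gy and 566, 512 and 456 CPM at 24 h. Its control replicate III was the lowest control and still above the 6 h libraries (log2 fold change -0.61, adjusted p = 3.35e-04). SMAD3, a transducer of TGF-β signals, was at 123, 121 and 118, 86.7, 77.6 and 88.5 and 167, 165 and 163 CPM in the same order. METTL7A, of lipid droplets and the endoplasmic reticulum, had means of 30.6 ± 2.83, 17.1 ± 2.15 and 58.0 ± 1.85 CPM (SD, n = 3), and the glucose transporter gene SLC2A12 13.4 ± 0.879, 8.55 ± 0.969 and 31.5 ± 1.40 CPM. DTX4, a Deltex ubiquitin ligase gene that overlaps MPEG1 on the other strand, and VIT, of the extracellular matrix, showed the same order, with 6 h values of -0.67 and -0.51 against the control and 24 h minus 6 h differences of 1.62 and 1.48 on the log2 scale. At 24 h after 1 Gy NEAT1 stood at 556 ± 29.0 CPM.

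**Figure D5:**
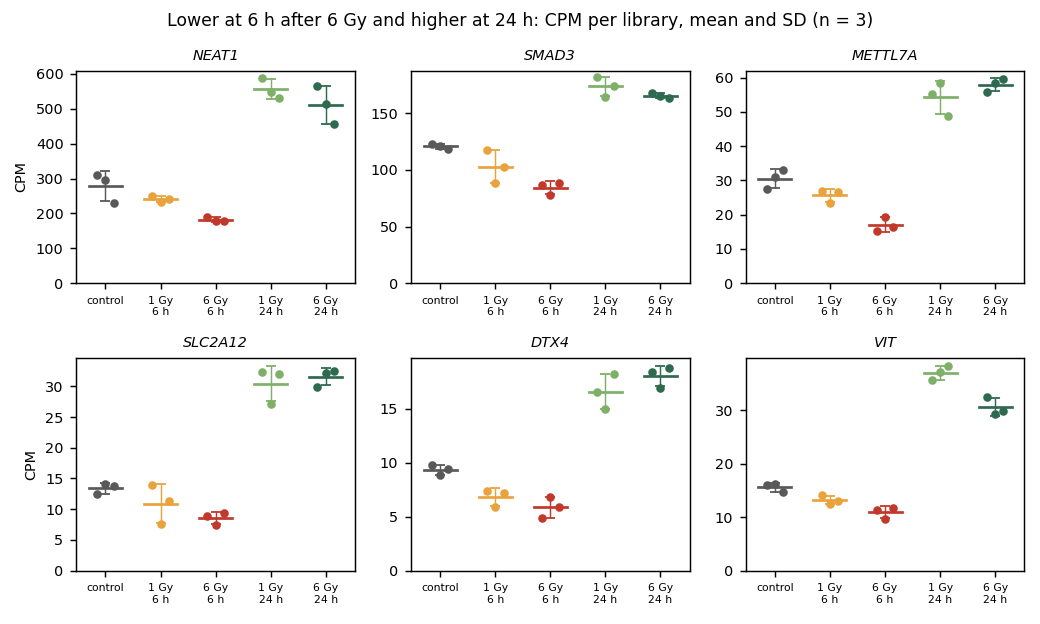
CPM (y axis, from 0) of 6 genes that were lower at 6 h after 6 Gy and had means above the control mean at 24 h, in each of the 15 libraries by group (x axis), with the mean and SD of 3 as bars. NEAT1 goes from 279 ± 43.9 CPM in the control to 182 ± 7.07 CPM at 6 h and 511 ± 54.9 CPM at 24 h after 6 Gy.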

How the data were processed

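The 15 RNA-seq libraries of the U251 line fall into 5 groups and were made from poly(A) RNA with the NEBNext Ultra kit. The authors deposited raw read counts of 22447 genes, made with TopHat on hg19 and HTSeq. Their versions and the strand setting are not given in the sources used. The table held 0 columns of other samples. A second table, which the authors deposited, holds their fold changes, p-values, calls and scaled values of 13 libraries and was not used.

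Groups came from the labels. Genes passing filterByExpr of edgeR 4.0.16 (minimum count 10, total 15, large group size 10, proportion 0.7) in R 4.3.3 were scaled by TMM and tested by the quasi-likelihood test in 1 fit over the 5 groups, with 10 residual degrees of freedom, 10.3 prior ones and a biological coefficient of variation of 7.19%. Standard errors are the log2 fold change divided by the square root of the F statistic. Benjamini-Hochberg adjustment ran over 12597 genes, and calls need a fold change beyond 0.5 on the log2 scale, either way, with an adjusted p below 0.05. CPM are counts per TMM-adjusted library size, and depend on transcript length.

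The comparison and the 28 gene lists were chosen with earlier results of these data known. Most named genes come from a rule: the 12 highest and 15 lowest called genes that reach 1 CPM in the mean of either group and whose libraries do not overlap, up to 4 called members of each list with the lowest adjusted p, and genes the study names. Some genes are not reported here. Genes given as values of a list, and those marked so, were chosen after their values were seen.

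Simulated counts with known changes served to check the test. Alternatives were RLE, upper quartile and total scaling, other filters and thresholds, DESeq2 1.42.0, the likelihood ratio test, 13 libraries, only the compared groups, a replicate block and each library left out. Promoters came from RefSeq on GRCh38.p14 and gene positions from the count table (hg19). Figures were drawn with matplotlib 3.10.9 in Python 3.11.15.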

Additional observations from a re-analysis of the deposited data

Results flagged for a closer look

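For 24 of the 49 named genes that were called at 6 h after 6 Gy, the response at 24 h differed from that at 6 h. The 24 h cells, like the control, were harvested 18 h later than the 6 h cells. A changed response to IR therefore cannot be told apart from a difference in time in culture. Both responses are measured from the same control libraries, so their difference is the direct comparison of 24 h with 6 h after 6 Gy, in which these genes passed both thresholds (edgeR's quasi-likelihood test), as did 10.5% of all tested genes. The 49 genes were largely chosen for their values at 6 h after 6 Gy, and the same libraries enter this difference, so the count is a description. The values that follow are log2 differences, 24 h minus 6 h. Of the 24 genes, 20 were higher at 24 h. The cyclin genes had 1.503 for CCNB3, 1.29 for CCNA1, 1.10 for CCNG2, 0.90 for CCNB1 and 0.69 for CCNB2. Among genes of the spindle and of mitotic kinases the values were 1.10 for KIF20A, 0.82 for ASPM, 0.69 for GAS2L3, 0.64 for HMMR, 0.63 for AURKA, 0.57 for PLK1, 0.56 for DLGAP5 and 0.50 for KIF14. The securin gene PTTG1 had 0.79 and the centromeric histone gene CENPA 0.52. The helicase gene PIF1 had 1.36, TNFAIP8L1 had 1.26 and the interferon-stimulated gene IFIT1 had 1.10. The largest of these values, 3.04, was that of the replication-dependent histone gene HIST1H2AG, whose call at 6 h was not kept by DESeq2. Of the 11 tested genes of its list, 10 were higher at 24 h than at 6 h, with a median of 1.82, against 7.3% of all tested genes. RELB, an NF-kB subunit gene called higher at 6 h, was higher again at 24 h, by 0.56. The 4 genes that were lower at 24 h than at 6 h had all been called higher at 6 h, with -0.90 for C19orf57, -0.84 for FAM171A2, -0.98 for STOX1 and -1.23 for ZNF540.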

How the results depend on the processing

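The count of lower genes (98) stayed within 1.5 times under every scaling, filter, tool and set of libraries, and moved with the fold threshold. Of the 49 called named genes, 34 kept their call at each left-out library and 39 under every other scaling, filter, test and set of libraries planned. With no fold threshold 108 genes were higher and 204 lower than the control, 17 and 105 between the doses, and 2007 and 1910 between 24 h and 6 h. With an absolute log2 fold change above 1 these counts were 3 and 20, 1 and 13, and 215 and 60. Each library left out in turn gave 11 to 23 higher genes and 83 to 92 lower ones against the control, with 13, 11 and 23 higher without replicates I, II and III of 6 Gy and 16, 17 and 19 without those of the control. Between the doses it gave 2 to 12 higher genes (12 without the first replicate of 1 Gy) and 61 to 72 lower ones, and between the times 823 to 955 and 361 to 419. Genes higher after 6 Gy than after 1 Gy numbered 3 in the fit over all libraries, 7 by the likelihood ratio test, 2 by DESeq2 and 0 by the quasi-likelihood test on these groups alone (258 at an unadjusted p under 0.05). With the replicate number as a block 35 genes were higher and 106 lower than the control. Deviations of same-numbered control and 6 Gy libraries had correlations of 0.281, -0.054 and -0.00316, of which the first was the highest among all 9 pairs, and the libraries were not treated as pairs. Without replicate II of 1 Gy at 6 h, an alternative chosen after seeing the data, these counts were 32 and 101. Among the named genes, 3 that were not called changed sign. PPIB had 0.030 and PRSS35 0.045 with 13 libraries. With each library left out, BTG2 ranged from -0.28 to 0.022, PPIB from -0.13 to 0.035 and PRSS35 from -0.14 to 0.10. The cause was not tested for any of these.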
